A study of Mus musculus with 7 samples.

Results

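Enox1, Arhgef4 and Rgs6 are 3 protein-coding genes, matched by symbol among the 55418 gene symbols of the count matrices, and their transcripts were followed here through the named nuclear types of the mouse hippocampus. The genes were singled out by the study on astrocytes of these same nuclei, as defining genes of an astrocyte subcluster that was high in Arctic mice and missing after PMX205. Their astrocyte values are therefore given as a description with no test, and tests are given for the other types only. Each well of the first barcoding round held hippocampal nuclei of 1 mouse, and 43885 nuclei in 24 wells were kept. The Arc groups were hemizygous for the Arctic48 transgene, a human APP gene with the Indiana, Swedish and Arctic mutations, on C57BL6/J. The WT groups were mice of the same crosses without it. The promoter that drives the transgene was not given in the sources used here. The mice drank water (WT-veh, Arc-veh) or water with 20 µg/ml PMX205, a cyclic hexapeptide antagonist of the complement receptor C5aR1, for 12 weeks (WT-PMX, Arc-PMX). The 12 weeks are those of the labels, and the study's text gives a slightly shorter span. All mice were perfused at 10 months. Each of the 4 groups had 6 wells, here named by sex, with 3 from females (F1, F2, F3) and 3 from males (M1, M2, M3).

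Enox1 encodes an ecto-NOX protein, a cell-surface NADH oxidase with disulfide-thiol exchange activity that takes part in electron transport across the plasma membrane. Arhgef4, also known as Asef, encodes a guanine nucleotide exchange factor for small GTPases that is released from autoinhibition by the tumour suppressor APC and acts on cell shape and migration. Rgs6 encodes a regulator of G-protein signalling of the R7 family, which binds the G-protein beta subunit Gnb5 and speeds GTP hydrolysis on inhibitory alpha subunits, so that signals from Gi/o-coupled receptors end sooner.

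The genes lie on different chromosomes of GRCm38 (mm10). Enox1 spans chr14:77156763-77721760, Arhgef4 spans chr1:34678188-34813309 and Rgs6 spans chr12:82588292-83162056, all on the plus strand. After doublets were removed the nuclei held 329175 Enox1 transcripts, 31343 Arhgef4 transcripts and 62391 Rgs6 transcripts. A second identifier that also bears the symbol Arhgef4 had 0 transcripts. Other annotated genes overlap each locus. At Enox1 and at Rgs6, 1 of 7 was on the same strand, and at Arhgef4 it was 3 of 5, all of these with 0 transcripts. The most abundant was Fam168b, opposite Arhgef4, with 9242 transcripts in all nuclei. The genes that overlap Rgs6 had 249 transcripts in all, against 64544 of Rgs6 itself counted in the same way.

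The promoters, from 250 bases before to 50 bases after an annotated start, are shown because the 3 genes, which the study grouped, differed in their order over types. The sequences are those of RefSeq on GRCm38.p6, plus strand, 5′ to 3′, with matches in capitals. Enox1 is at chr14:77156513-77156812, Arhgef4 at chr1:34677932-34678231 for its upstream start and Rgs6 at chr12:82617249-82617548, an internal start that lies downstream of the first base of the annotated span.
Enox1: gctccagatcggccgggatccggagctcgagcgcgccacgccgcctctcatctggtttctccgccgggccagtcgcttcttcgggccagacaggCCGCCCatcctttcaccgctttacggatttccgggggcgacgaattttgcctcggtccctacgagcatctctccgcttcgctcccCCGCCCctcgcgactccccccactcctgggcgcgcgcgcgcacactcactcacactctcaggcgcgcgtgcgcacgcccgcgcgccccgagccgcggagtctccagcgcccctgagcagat
Arhgef4: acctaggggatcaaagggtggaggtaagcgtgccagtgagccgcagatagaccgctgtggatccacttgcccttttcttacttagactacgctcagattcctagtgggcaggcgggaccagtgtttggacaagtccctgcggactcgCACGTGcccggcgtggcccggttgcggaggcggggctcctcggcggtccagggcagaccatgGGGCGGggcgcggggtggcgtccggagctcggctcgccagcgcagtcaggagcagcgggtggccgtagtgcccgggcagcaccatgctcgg
Rgs6: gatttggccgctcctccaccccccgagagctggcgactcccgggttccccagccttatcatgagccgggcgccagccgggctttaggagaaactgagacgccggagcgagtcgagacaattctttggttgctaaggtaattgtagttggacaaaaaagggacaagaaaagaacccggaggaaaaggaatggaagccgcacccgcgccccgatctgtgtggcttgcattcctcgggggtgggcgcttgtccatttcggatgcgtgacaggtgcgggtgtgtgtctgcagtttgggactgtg

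The 6 motifs searched on both strands were the STAT site TTCNNNGAA, the AP-1 site TGANTCA, the GC box GGGCGG, the CCAAT box CCAAT, the E-box CACGTG and the cyclic AMP response element TGACGTCA. Of the 32851 promoters of this length in the table, 8.3% held the STAT site, 7.81% the AP-1 site, 35.7% the GC box, 37.4% the CCAAT box, 7.15% the E-box and 1.79% the cyclic AMP response element. The Enox1 promoter held 2 GC boxes, both on the minus strand, and had a GC content of 70.3% with 42 CpG dinucleotides, against a median GC content of 52.7% over all promoters. The upstream Arhgef4 promoter held 1 E-box and 1 GC box, with a GC content of 67.3%. The Rgs6 promoter, with a GC content of 58.7%, and the second Arhgef4 promoter at chr1:34801491-34801790 held none of the 6. A match is only a match of letters.

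Levels are transcripts per 1000000 transcripts (CPM) of a nuclear type, summed within a well and scaled by the trimmed mean of M-values (TMM) where the type was fitted. They were not divided by gene length, so they were compared across types and groups within a gene and not between genes. A type was counted in a well only with at least 10 nuclei there, and 16 types had such wells in sufficient number to be placed in order, the neuronal subtypes taken apart. Types were named from clusters by marker lists, and the 3 genes were left out of the clustering. Every marker of each named type had transcripts in its pooled nuclei. Not every marker reached 10% of the nuclei of each cluster, and in the T cell cluster 4 of 6 did. Neighbours in the order were compared over the wells that held both types by a two-sided permutation test with sign flips of the log2 difference, adjusted by Benjamini-Hochberg over 45 neighbour pairs. With 100000 flips the smallest p it can give is 2e-05. Pairs that include astrocytes are described without a p.

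Averaged over the 24 wells, Enox1 stood above its astrocyte mean in oligodendrocytes and in each neuronal subtype placed in the order, and its level was highest in excitatory neurons marked by Slc17a6 and subicular genes. There it reached 2253 ± 141 CPM (SD, n = 22 wells). MGE-like interneurons, which derive from the medial ganglionic eminence and carry Lhx6 and Sox6, followed at 1480 ± 130 CPM (n = 24). The first type was above the second in 22 of 22 wells, by 0.62 on the log2 scale (adjusted p = 0.000225, permutation test). CA3 pyramidal neurons had 1458 ± 116 CPM and could not be told from MGE-like interneurons (difference 0.02 on the log2 scale, adjusted p = 0.818, permutation test). CGE-like interneurons, of the caudal ganglionic eminence, were lower than CA3 neurons in 19 of 24 wells, at 1282 ± 168 CPM (adjusted p = 0.0027, permutation test).

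Oligodendrocytes held 1091 ± 157 CPM of Enox1, below CGE-like interneurons in 20 of 24 wells (adjusted p = 0.00195, permutation test) and next to CA1 pyramidal neurons at 1072 ± 88.1 CPM (adjusted p = 0.975, permutation test). Deep cortical excitatory neurons (893 ± 195 CPM) were below CA1 neurons in 20 of 24 wells (adjusted p = 0.00244, permutation test). Dentate granule neurons (872 ± 48.9 CPM) had the smallest SD of these types and did not differ from deep cortical neurons beyond the spread (adjusted p = 0.987, permutation test). Astrocytes came next, with a mean of 681 CPM and an SD of 443 CPM. The wells of the genotypes lay apart, as given below. Below astrocytes no neighbours passed the test. Endothelial cells had 562 ± 330 CPM (n = 17), ependymal cells 504 ± 317 CPM (n = 13), oligodendrocyte precursor cells (OPC) 322 ± 93.9 CPM (n = 24), and microglia were the lowest at 87.9 ± 51.4 CPM (n = 21).

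Arhgef4 had another order, with astrocytes at the top. Astrocytes held 810 ± 251 CPM (SD, n = 24), above ependymal cells, the ciliated lining of the ventricles, in 12 of 13 wells. Ependymal cells held 499 ± 214 CPM and were above dentate granule neurons in 13 of 13 wells, by 1.61 on the log2 scale (adjusted p = 0.00195, permutation test). Dentate granule neurons, at 150 ± 21.6 CPM, were the highest of the neuronal subtypes and were above endothelial cells (97.6 ± 63.4 CPM) in 13 of 17 wells (adjusted p = 0.00577, permutation test). Endothelial cells, OPC (74.7 ± 32.6 CPM) and CA3 neurons (67.3 ± 11.3 CPM) could not be told apart as neighbours (adjusted p = 0.975 for both pairs, permutation test). MGE-like interneurons (40.8 ± 8.97 CPM) were below CA3 neurons in 23 of 24 wells (adjusted p = 0.000225, permutation test), and no neighbours below them passed the test. CGE-like interneurons had 40.2 ± 14.4 CPM and CA1 neurons 33.7 ± 7.71 CPM. The lowest level was in oligodendrocytes, with 6.15 ± 6.63 CPM.

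Rgs6 was highest in pericytes, the mural cells of capillaries, with 1086 ± 512 CPM (SD, n = 13). Pericytes were above astrocytes (521 ± 153 CPM, n = 24) in 12 of the 13 wells that held both. Ependymal cells (492 ± 175 CPM) and deep cortical excitatory neurons (438 ± 130 CPM) did not differ beyond the spread (adjusted p = 0.818, permutation test). MGE-like interneurons (237 ± 85.6 CPM) were below deep cortical neurons in 22 of 24 wells (adjusted p = 0.000225, permutation test). CGE-like interneurons (250 ± 171 CPM) could not be told from MGE-like interneurons (adjusted p = 0.975, permutation test), and their mean log2 level was the lower of the pair. CA1 neurons, at 96.2 ± 28.8 CPM, were below CGE-like interneurons in 22 of 24 wells (adjusted p = 0.000225, permutation test) and beside CA3 neurons at 94.5 ± 28.9 CPM (adjusted p = 0.975, permutation test). Dentate granule neurons were lower than CA3 neurons in 19 of 24 wells, at 71.8 ± 22.8 CPM (adjusted p = 0.0029, permutation test). No neighbours below them passed the test. The mean log2 level was lowest in microglia (16.9 ± 19.3 CPM), after oligodendrocytes (13.2 ± 13.0 CPM), choroid plexus (26.5 ± 51.6 CPM), subicular or Slc17a6 excitatory neurons (16.1 ± 12.6 CPM) and OPC (24.2 ± 26.9 CPM).

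Nuclei of other neurons (5069 nuclei in 12 clusters that no subtype list named) and 3553 unnamed nuclei stood outside the order and the fits. In other neurons the means of the 4 groups ran from 772 to 853 CPM for Enox1, from 32.7 to 45.5 CPM for Arhgef4 and from 423 to 499.6 CPM for Rgs6. The latter were near the Rgs6 level of deep cortical neurons. For each gene the Arc-veh wells overlapped the WT-veh wells there, as they did in the unnamed nuclei.

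**Figure D1:**
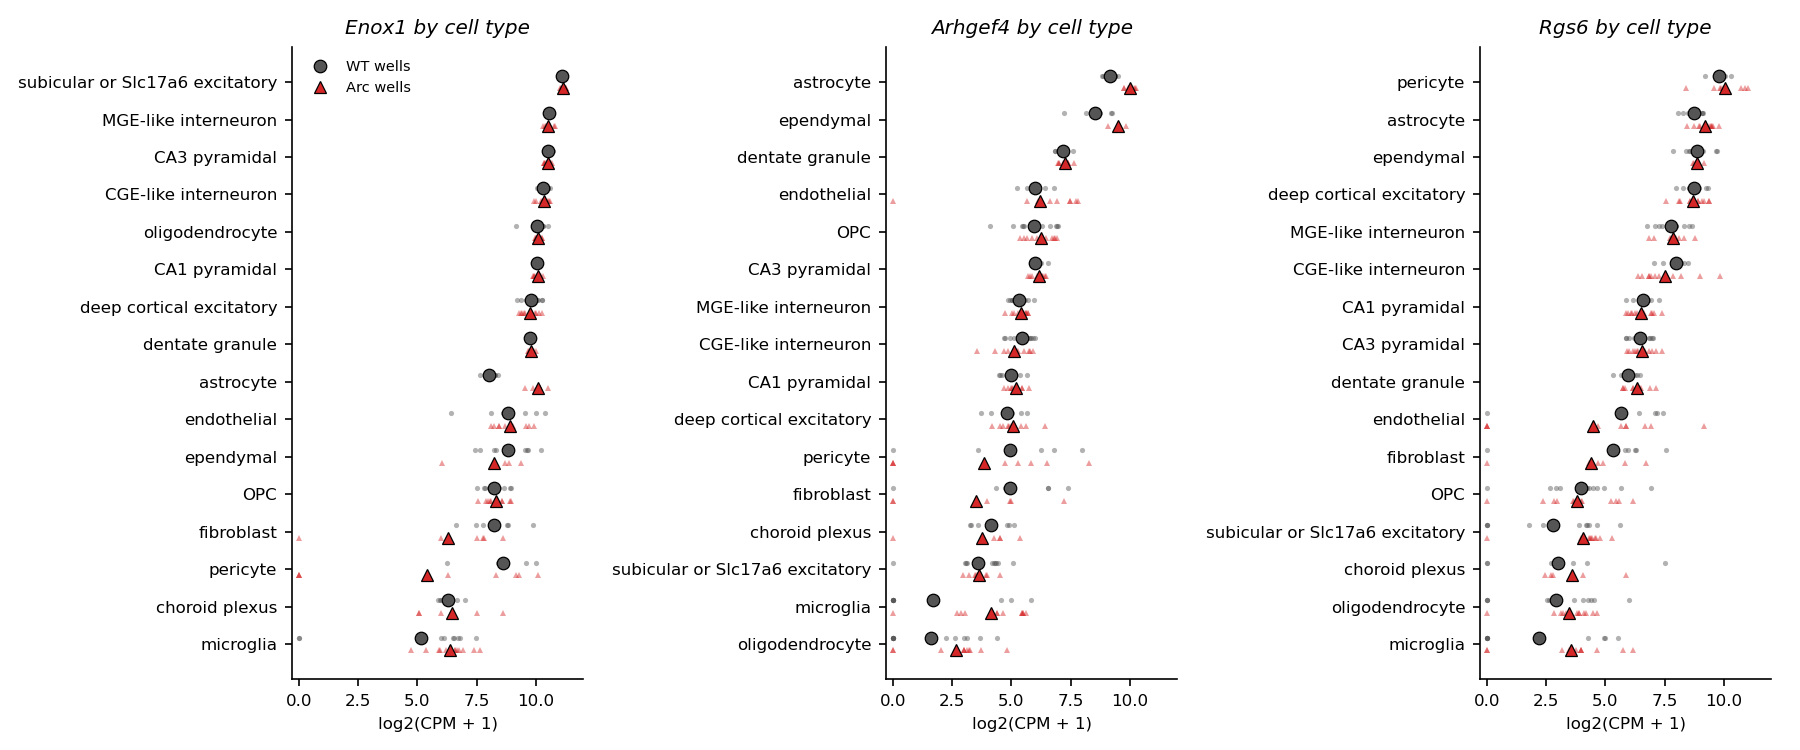
Levels of Enox1, Arhgef4 and Rgs6 in each nuclear type, one panel a gene, as log2(CPM + 1), with small marks for single wells that held at least 10 nuclei of the type and large marks for the means of WT wells (circles) and Arc wells (triangles). Over all wells Enox1 runs from 2253 CPM in subicular or Slc17a6 excitatory neurons to 87.9 CPM in microglia, Arhgef4 is highest in astrocytes at 810 CPM, and Rgs6 is highest in pericytes at 1086 CPM.

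The place of astrocytes in the order held in both genotypes for Arhgef4 (rank 1 of 16 types in WT wells and in Arc wells) and nearly so for Rgs6 (rank 3 and rank 2). For Enox1 it did not. Taken over the 12 WT wells, astrocytes ranked 14 of 16, and over the 12 Arc wells they ranked 6 of 16.

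The genes whose mean log2 CPM over the 16 types was most like that of each gene were found by Pearson correlation among 8441 genes. The 16 points share wells and libraries, so the values are a description. For Enox1 they were Hdx (r = 0.96), Ap3b2 (r = 0.95), Otud7a (r = 0.95), Kif5a (r = 0.93) and Ttbk1 (r = 0.92). For Arhgef4 they were Pla2g7 (r = 0.88), Nkain4 (r = 0.84), Slc25a18 (r = 0.83), Gm40578 (r = 0.82) and Mro (r = 0.81), and the first 4 of these had their highest level in astrocytes. For Rgs6 the values were lower, with Zcchc14 (r = 0.81), Pde8b (r = 0.74), Slc1a4 (r = 0.73), Crtc3 (r = 0.73) and Cdh2 (r = 0.73). The 3 genes were less like each other, with r = 0.58 between Arhgef4 and Rgs6 and r = 0.17 for Enox1 with either.

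In astrocytes, where the genes were chosen, Enox1 transcripts were several times higher in Arc wells than in WT wells, with or without PMX205. In WT-veh wells the level ran from 197 CPM (F1) over a median of 244 to 312 CPM (M1), and the mean was 253 ± 40.1 CPM (SD, n = 6). WT-PMX wells ran from 235 (F3) over a median of 255 to 338 CPM (M3). Arc-veh wells ran from 940 (M1) over a median of 1114 to 1466 CPM (M2), with a mean of 1145 ± 176 CPM. Every Arc-veh well was above every WT well. Arc-PMX wells ran from 735 (F2) over a median of 1111 to 1149 CPM (F3), also above every WT well and overlapping Arc-veh. The fitted difference of Arc-veh from WT-veh was 2.18 on the log2 scale (SE 0.128, 95% interval 1.92 to 2.44). Of Arc-PMX from Arc-veh it was -0.13 (SE 0.113, interval -0.36 to 0.10), and of WT-PMX from WT-veh 0.10 (SE 0.133, interval -0.17 to 0.37). The difference of the PMX205 effects, Arc minus WT, was -0.23 (SE 0.175, interval -0.58 to 0.13).

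Arhgef4 was also higher in Arc astrocytes, by a smaller margin. WT-veh wells ran from 454 (M3) over a median of 567.9 to 663 CPM (M1), and WT-PMX wells from 461 (M3) over a median of 615 to 717 CPM (M1). Arc-veh wells ran from 859 (F1) over a median of 1065 to 1177 CPM (M3), and Arc-PMX wells from 863 (M1) over a median of 1025 to 1205 CPM (F2). No Arc well overlapped a WT well, and the PMX205 and vehicle wells of each genotype overlapped. The difference of Arc-veh from WT-veh was 0.89 on the log2 scale (SE 0.115, interval 0.65 to 1.12). Arc-PMX differed from Arc-veh by -0.04 (SE 0.109, interval -0.26 to 0.19) and WT-PMX from WT-veh by 0.09 (SE 0.116, interval -0.15 to 0.33).

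Rgs6 separated the genotypes least in astrocytes. WT-veh wells ran from 308 (F3) over a median of 438 to 535 CPM (M2), and WT-PMX wells from 269 (F3) over a median of 423 to 559 CPM (F2). Arc-veh wells were the most scattered, from 344 (F3) over a median of 601 to 880 CPM (M1). Arc-PMX wells ran from 497 (M3) over a median of 637 to 715 CPM (F1). The groups overlapped, with F2, F3 and M2 of Arc-veh within the WT-veh range. The difference of Arc-veh from WT-veh was 0.43 on the log2 scale (SE 0.173, interval 0.08 to 0.78), and of Arc-PMX from Arc-veh 0.09 (SE 0.165, interval -0.24 to 0.43).

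**Figure D2:**
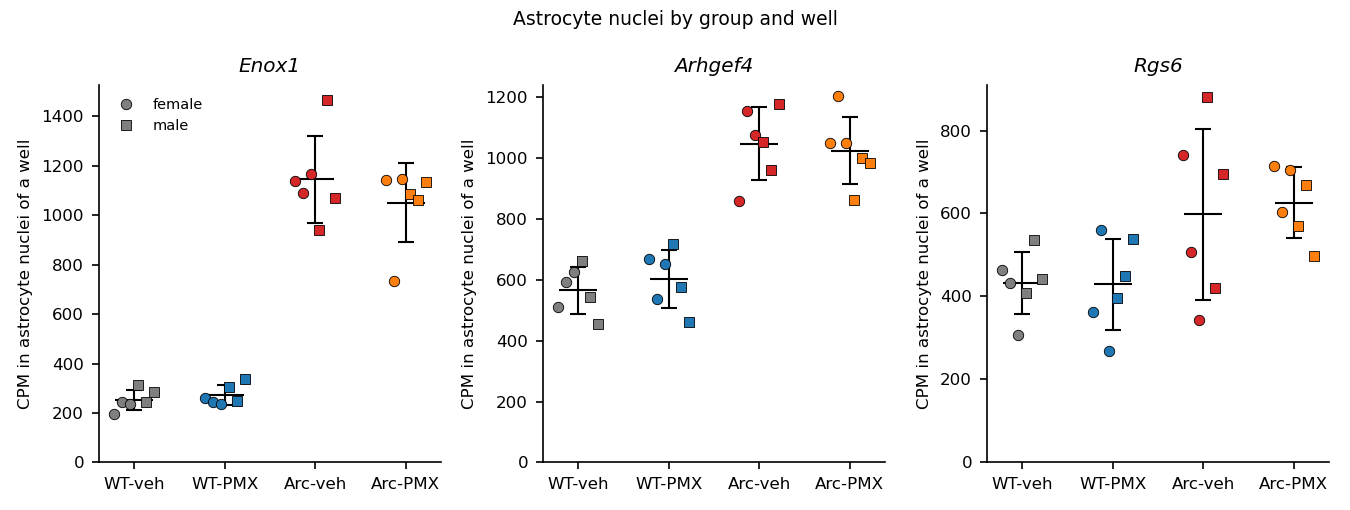
Astrocyte levels of Enox1, Arhgef4 and Rgs6 in CPM, one panel a gene, with a circle for each well of females and a square for each well of males, 6 wells a group, and bars for the mean and SD. All Arc wells lie above all WT wells for Enox1 and Arhgef4, while for Rgs6 the Arc-veh wells run from 344 to 880 CPM across the WT range.

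Many other astrocyte genes differed between the genotypes. In astrocytes 7261 genes were tested, and 12.6% of them were past an adjusted p of 0.05 for Arc-veh against WT-veh in either direction (edgeR). For Arc-PMX against Arc-veh it was 0.0138%, for WT-PMX against WT-veh 0% and for the difference of the PMX205 effects 0%. In order of fold change of Arc-veh over WT-veh, Enox1 was gene 100, Arhgef4 gene 411 and Rgs6 gene 1081. Of all genes tested, 4.48% had every Arc-veh well above every WT-veh well, as Enox1 and Arhgef4 did, and 3.94% had every Arc-PMX well above every WT-PMX well. Since the genes were selected on these astrocytes, nothing is read from their place among the others.

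The share of astrocyte nuclei with at least 1 transcript moved with the level. Arc astrocyte nuclei held more transcripts, with a median of 2450 per nucleus in Arc-veh and 1355 in WT-veh, and the cause was not tested. Nuclei were therefore thinned to 1000 transcripts and shallower nuclei were left out. These were 463 of 1478 nuclei in WT-veh, 279 of 1469 in WT-PMX, 116 of 1207 in Arc-veh and 124 of 1283 in Arc-PMX. Thinned, Enox1 was seen in 20.4% ± 3.84 of WT-veh nuclei and 20.4% ± 2.90 of WT-PMX nuclei (SD over wells, n = 6). It was seen in 51.5% ± 5.52 of Arc-veh nuclei and 50.8% ± 7.83 of Arc-PMX nuclei. Unthinned, the shares were 25.0%, 32.7%, 66.7% and 65.6% in the same order. For Arhgef4 the thinned shares were 36.6%, 40.9%, 57.8% and 58.9%, and unthinned they were 45.0%, 56.0%, 79.3% and 79.4%. For Rgs6 they were 23.0%, 23.3%, 32.5% and 34.3% thinned and 25.7%, 30.6%, 48.0% and 49.1% unthinned. In microglia, which carried the genes at or near their lowest levels, the thinned shares were 7.88% for Enox1, 1.54% for Arhgef4 and 1.16% for Rgs6. Microglia had a median of 1008 transcripts per nucleus before thinning, against 1771 in astrocytes.

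Astrocyte nuclei fell into 3 clusters, and different clusters held most of them in the genotypes. Cluster 1, led by Gpc5, Slc1a2 and Rorb, held 1343 of 1478 WT-veh nuclei and 417 of 1207 Arc-veh nuclei. Cluster 7, led by Gfap, the intermediate filament of reactive astrocytes, and by Gpam, held 657 of the Arc-veh nuclei and 20 of the WT-veh nuclei. It was also present with PMX205, with 56.1% ± 10.6 of astrocyte nuclei in Arc-veh wells and 51.0% ± 9.67 in Arc-PMX wells (SD, n = 6). Cluster numbers are those of the clustering made here. The study's subcluster, described there as low in known reactive genes, was not matched to any of them. Cluster 23, led by Adamts9 and Aqp4, held the rest. The values that follow are plain CPM of the nuclei concerned, without TMM scaling. Within cluster 1, Enox1 averaged 246 ± 43.9 CPM over WT-veh wells against 420 ± 143 CPM over Arc-veh wells, which overlapped (SD, n = 6). The PMX205 wells averaged 267 ± 39.4 CPM in WT and 438 ± 104 CPM in Arc, and there the lowest Arc-PMX well (342 CPM) was above the highest WT-PMX well (326 CPM), the mean difference being 0.69 on the log2 scale. Of the genes with at least 50 transcripts in these wells 0.321% were separated in this way. In cluster 7 of Arc-veh Enox1 had 1540 ± 147 CPM and in Arc-PMX 1462 ± 160 CPM. No WT-veh well held 10 nuclei of it, and the 2 WT-PMX wells that did had 312 and 552 CPM. In cluster 23 the 4 WT-veh wells averaged 202 ± 72.1 CPM and the 6 Arc-veh wells 364 ± 89.7 CPM. Of the 4116 Enox1 transcripts of Arc-veh astrocytes, 3677 lay in nuclei of cluster 7.

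Arhgef4 and Rgs6 were instead highest in cluster 23. Arhgef4 there averaged 1182 ± 206 CPM over WT-veh wells and 1817 ± 265 CPM over Arc-veh wells, against 487 ± 65.2 and 694 ± 94.96 CPM in cluster 1. In cluster 7 of Arc-veh it had 1120 ± 137 CPM. Rgs6 in cluster 23 averaged 1072 ± 237 CPM over WT-veh wells and 1442 ± 782 CPM over Arc-veh wells, against 380 ± 59.4 and 487 ± 276 CPM in cluster 1. The PMX205 wells of cluster 1 averaged 370 ± 109 CPM of Rgs6 in WT and 643 ± 100 CPM in Arc, a mean difference of 0.84 on the log2 scale. As for Enox1, these did not overlap, with the lowest Arc-PMX well at 491 CPM and the highest WT-PMX well at 487 CPM. For Arhgef4 the PMX205 wells of cluster 1 overlapped. In cluster 7 of Arc-veh Rgs6 had 547 ± 141 CPM. In Arc-veh the 3 genes thus did not share the cluster in which their mean level was highest.

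The same nuclei were also split by whether they held a Gfap transcript, a split that the depth of a nucleus affects. In Arc-veh, Enox1 had 1330 ± 162 CPM in nuclei with Gfap and 562 ± 111 CPM in those without, and it was higher with Gfap in 6 of 6 wells, by 1.26 ± 0.244 on the log2 scale (SD). In Arc-PMX it was higher by 1.498 ± 0.392, again in 6 of 6 wells. In WT-veh the difference was 0.18 ± 0.353, with 280 ± 82.2 CPM with Gfap and 238 ± 36.2 CPM without. Arhgef4 was higher in nuclei with Gfap by 0.52 ± 0.409 in WT-veh, 0.74 ± 0.176 in WT-PMX, 0.72 ± 0.441 in Arc-veh and 0.63 ± 0.326 in Arc-PMX. For Rgs6 the difference ran from 0.56 ± 0.280 in WT-veh, in 6 of 6 wells, to 0.05 ± 0.467 in Arc-PMX, in 2 of 6 wells. Among nuclei without a Gfap transcript, every Arc-veh well was still above every WT-veh well for Enox1 but not for Arhgef4 or Rgs6, against 0.465% of the genes with at least 50 transcripts there. The PMX205 wells overlapped in these nuclei for Enox1 too, with the lowest Arc-PMX well at 301 CPM and the highest WT-PMX well at 321 CPM. The difference was 0.78 on the log2 scale between these and 1.22 between the vehicle groups.

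**Figure D3:**
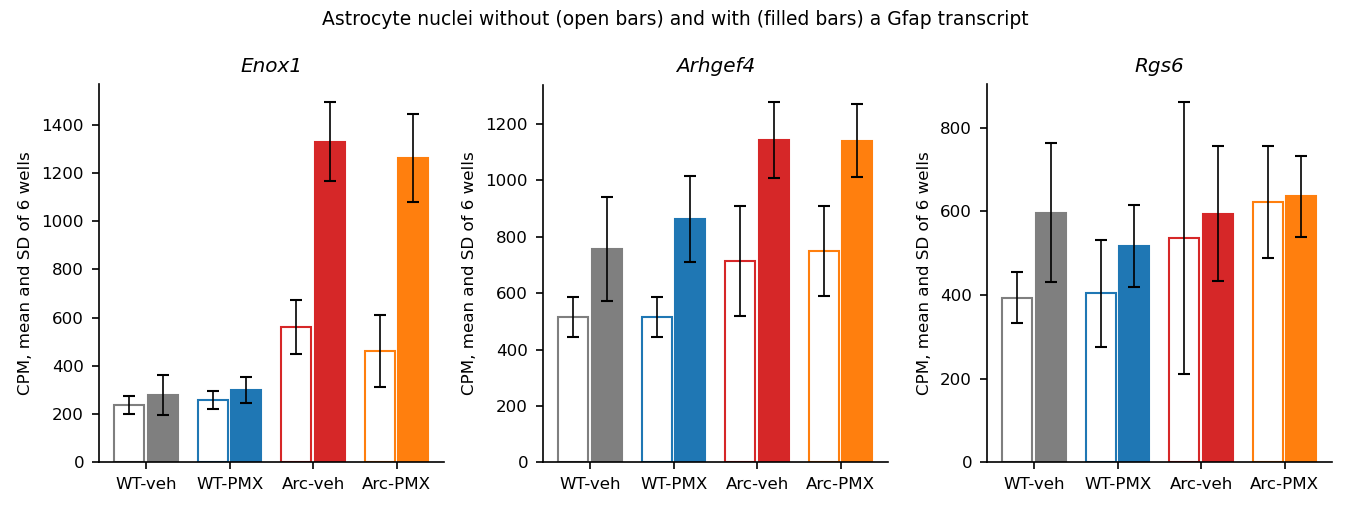
Levels of the 3 genes in CPM in astrocyte nuclei with and without a Gfap transcript, by group, with open bars for nuclei without and filled bars for nuclei with it, and error bars for the SD of 6 wells. Enox1 with Gfap stands at 1330 CPM in Arc-veh and 280 CPM in WT-veh, and without Gfap at 562 and 238 CPM.

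Marker lists were summed in the same astrocyte nuclei. The summed level of the 7 astrocyte markers was 32300 to 37050 CPM in WT-veh wells and 22810 to 28000 CPM in Arc-veh wells. The 6 neuronal markers summed to 956 to 1160 CPM in WT-veh and 558 to 946 CPM in Arc-veh, the 6 OPC markers to 146 to 248 and 197 to 441 CPM, the 6 oligodendrocyte markers to 55.5 to 183 and 45.5 to 101 CPM, and the 7 microglial markers to 48.3 to 98.4 and 73.9 to 110 CPM. The wells of these groups did not overlap for the astrocyte and neuronal markers and overlapped for the other lists. No list was at 0, although 1 of the 7 microglial markers had 0 transcripts in WT-veh astrocytes, and the part of these lists in the Enox1, Arhgef4 and Rgs6 values was not tested. AY036118, a transcript linked to ribosomal RNA, was high in 2 Arc-veh wells, at 4728 CPM in F3 and 17630 CPM in M1, and at most 1030 CPM in the other wells. In astrocyte nuclei without an AY036118 transcript, a set chosen after the data were seen, only 4 Arc-veh wells held enough nuclei. Enox1 differed there between Arc-veh and WT-veh by 1.77 on the log2 scale, against 2.23 on the same plain CPM scale in all astrocyte nuclei, and the groups still did not overlap, which held for 2.56% of the genes with at least 50 transcripts there. Arhgef4 differed by 0.86 against 0.94 and Rgs6 by 0.32 against 0.46.

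Outside astrocytes the question was whether the genotype or PMX205 moved the same genes. Counts per well were fitted in 12 other types with edgeR (quasi-likelihood), sex being a term of the model. Enox1 passed the filter on low counts in 11 of them, Arhgef4 in 7 and Rgs6 in 6. Over the 4 contrasts this gave 96 tests, and none had an adjusted p under 0.05. An unadjusted p under 0.05 was found in 5 of them, about the number that this threshold gives by chance. DESeq2 also called 0, with 4 at an unadjusted p under 0.05. Over all genes, edgeR gave such a p for 354 of 10464 in dentate granule neurons (WT-PMX against WT-veh). It did so for 137 of 4549 in CGE-like interneurons (Arc-PMX against Arc-veh) and 323 of 10351 in CA1 neurons (difference of the PMX205 effects). The background over all genes and the 12 types was 0.689% called for Arc-veh against WT-veh, 0.00598% for Arc-PMX against Arc-veh, 0.0015% for WT-PMX against WT-veh and 0.0015% for the difference of the PMX205 effects. With each nucleus named by its own markers instead of its cluster, 2 further tests gave a call of a lower level in Arc-veh, Enox1 in microglia and Arhgef4 in oligodendrocytes, where 8.74% and 6.04% of all genes were called lower. Neither gene passed the filter there in the clusters, and neither was called in the clusters without that filter. The values stand with the alternatives. By clusters, a count of 0 is close to the background in each contrast, and the intervals below say more.

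For Enox1 the intervals were narrow in the neuronal types where it was most abundant. In dentate granule neurons WT-veh wells ran from 798 over a median of 847 to 879 CPM and Arc-veh wells from 818 over 858 to 966 CPM, and they overlapped. The difference was 0.04 on the log2 scale (95% interval -0.09 to 0.17, adjusted p = 0.878, edgeR). In CA1 pyramidal neurons the wells ran from 927 over a median of 1090 to 1100 CPM in WT-veh and from 957 over 1098 to 1255 CPM in Arc-veh. The difference was 0.04 (interval -0.12 to 0.21). In CA3 pyramidal neurons it was -0.04 (interval -0.19 to 0.12), in subicular or Slc17a6 excitatory neurons 0.07 (interval -0.11 to 0.25), and in MGE-like interneurons -0.09 (interval -0.28 to 0.10). In oligodendrocytes WT-veh wells ran from 570 over a median of 1129 to 1437 CPM and Arc-veh wells from 1008 over 1108 to 1226 CPM. The difference there was -0.01 (interval -0.25 to 0.23, adjusted p = 0.999, edgeR). The upper ends of these intervals were below the difference of 2.18 given for astrocytes, a description only since the gene was chosen there. In OPC, which share the glial lineage, it was 0.18 with a wider interval of -0.25 to 0.60, and it ran from -0.08 without sublibrary 1 to 0.48 without sublibrary 2. In deep cortical excitatory neurons it was -0.11 (interval -0.46 to 0.25) and in CGE-like interneurons 0.01 (interval -0.26 to 0.27). The largest in size was in fibroblasts, at -1.01 with the widest interval, -2.60 to 0.58 (adjusted p = 0.797, edgeR), followed by endothelial cells at -0.44 (interval -1.68 to 0.80).

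The differences with PMX205 were within similar intervals in the same types. In Arc mice the difference of Arc-PMX from Arc-veh was 0.08 (interval -0.05 to 0.21) in dentate granule neurons, -0.02 (interval -0.18 to 0.15) in CA1 neurons, 0.00 (interval -0.15 to 0.16) in CA3 neurons and -0.05 (interval -0.28 to 0.17) in oligodendrocytes. The largest in size was in OPC, where Arc-veh wells ran from 249 over a median of 362 to 498 CPM and Arc-PMX wells from 189 over 272 to 380 CPM. The groups overlapped, and the difference of -0.41 (interval -0.83 to 0.02) did not pass the test (adjusted p = 1, edgeR). It ran from -0.52 without Arc-PMX M3 to -0.26 without sublibrary 1.

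Arhgef4 was tested in OPC and in neuronal subtypes. In dentate granule neurons, its highest neuronal subtype, WT-veh wells ran from 124 over a median of 152 to 161 CPM and Arc-veh wells from 127 over 161 to 196 CPM. The difference was 0.11 (interval -0.13 to 0.36, adjusted p = 0.805, edgeR). It was 0.23 (interval -0.13 to 0.59) in CA1 neurons, 0.22 (interval -0.05 to 0.49) in CA3 neurons 0.31 (interval -0.10 to 0.71) in MGE-like interneurons, 0.295 (interval -0.28 to 0.87) in deep cortical excitatory neurons, 0.15 (interval -0.43 to 0.73) in CGE-like interneurons and 0.16 (interval -0.56 to 0.89) in OPC. The difference was above 0 in all 7 types tested, with a median of 0.22, none passed the test, and every one of the intervals included 0. The share of all genes with the same sign in these types was not determined, so nothing is read from the signs. The types share their wells, so they are not independent of each other, and the sign turned in OPC without Arc-veh M3 (-0.02) or sublibrary 2 (-0.01), in CGE-like interneurons without sublibrary 3 (-0.02) or sublibrary 4 (-0.10), and in deep cortical neurons with each nucleus named by its own markers (-0.28). The 0.886 seen in astrocytes lay above the upper end of all 7 intervals, though only just for OPC (0.885) and deep cortical neurons (0.874). The astrocyte interval of 0.65 to 1.12 did not reach those of dentate granule, CA1 and CA3 neurons. It overlapped those of MGE-like and CGE-like interneurons, deep cortical neurons and OPC. The gene was chosen on these astrocytes and the fits share wells. The comparison with astrocytes is therefore a description, and no difference between types is read from it. In CGE-like interneurons Arc-veh wells ran from 24.4 over a median of 48.8 to 59.5 CPM and Arc-PMX wells from 10.6 over 31.5 to 37.9 CPM, with overlap. There Arc-PMX differed from Arc-veh by -0.63 on the log2 scale (unadjusted p = 0.0409, adjusted p = 1, edgeR), and the difference of the PMX205 effects was -0.94 (unadjusted p = 0.0276, adjusted p = 1, edgeR). These rest on 84 and 50 Arhgef4 transcripts in the Arc-veh and Arc-PMX nuclei, and when 1 well or 1 sublibrary was left out the first ran from -0.88 without sublibrary 4 to -0.40 without Arc-PMX M2.

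Rgs6 was tested in 6 neuronal subtypes. In deep cortical excitatory neurons, where it was highest among the named subtypes, WT-veh wells ran from 248 over a median of 413 to 463 CPM and Arc-veh wells from 282 over 448 to 664 CPM. The difference was 0.22 (interval -0.23 to 0.67, adjusted p = 0.981, edgeR). In dentate granule neurons it was 0.18 (interval -0.13 to 0.48) and in CA1 neurons 0.27 (interval -0.16 to 0.69), while in CA3 neurons it was -0.16 (interval -0.58 to 0.26), in CGE-like interneurons -0.08 (interval -0.95 to 0.79) and in MGE-like interneurons 0.00 (interval -0.46 to 0.45). With 1 well or 1 sublibrary left out, it ran from 0.09 to 0.36 in deep cortical, 0.07 to 0.24 in dentate granule, 0.10 to 0.41 in CA1 and -0.38 to -0.01 in CA3 neurons. In CGE-like (-0.54 to 0.12) and MGE-like interneurons (-0.32 to 0.18) the sign turned. The 0.43 seen for Rgs6 in astrocytes was above the interval of CA3 neurons and within those of the other 5 subtypes. This is a description only, since the gene was chosen on astrocytes. In dentate granule neurons WT-PMX wells ran from 39.1 over a median of 55.9 to 64.3 CPM and WT-veh wells from 56.1 over 66.6 to 87.2 CPM. WT-PMX differed from WT-veh by -0.33 (unadjusted p = 0.0353, adjusted p = 0.999, edgeR), and the difference of the PMX205 effects was 0.49 (unadjusted p = 0.0256, adjusted p = 1, edgeR). In CA1 neurons that difference was -0.62 (unadjusted p = 0.0457, adjusted p = 1, edgeR), in the opposite direction. Pericytes, where Rgs6 was highest of all, were not fitted because WT-PMX had fewer than 3 wells with 10 nuclei. Rgs6 had 1041 ± 247 CPM in 3 WT-veh wells, 706 ± 164 CPM in 2 WT-PMX wells, 1082 ± 714 CPM in 4 Arc-veh wells and 1314 ± 566 CPM in 4 Arc-PMX wells. The groups overlapped.

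**Figure D4:**
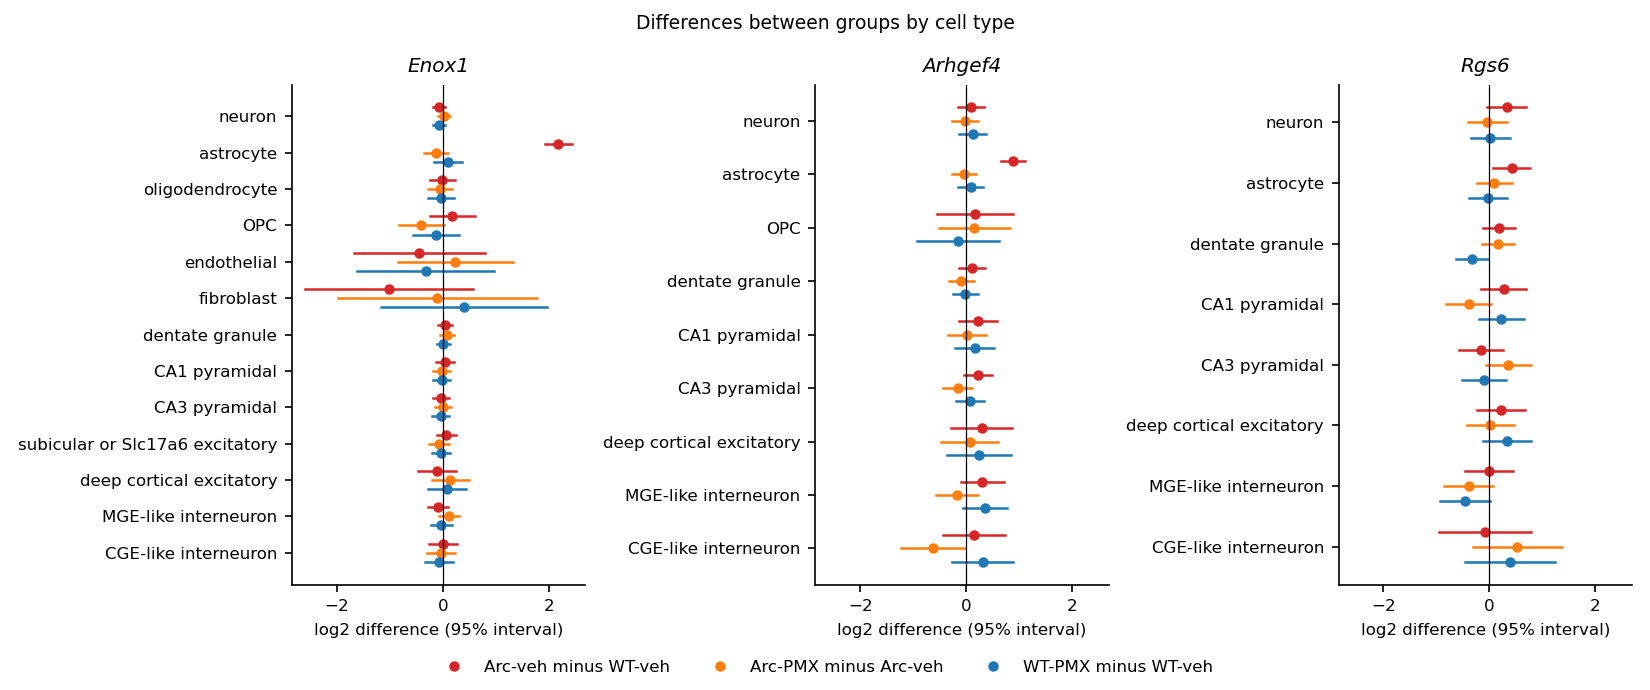
Log2 differences of Arc-veh from WT-veh (red), Arc-PMX from Arc-veh (orange) and WT-PMX from WT-veh (blue) for the 3 genes in each type fitted, with lines for the 95% intervals of the edgeR fit. Enox1 in astrocytes stands at 2.18, while its intervals in dentate granule, CA1 and CA3 neurons and in oligodendrocytes all include 0.

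Ependymal cells, beside astrocytes the type richest in Arhgef4, were too few to be fitted as well. Arhgef4 had 473 ± 137 CPM there in 4 WT-veh wells, from 339 to 597, and 800 ± 108 CPM in 3 Arc-veh wells, from 716 to 922, so these wells did not overlap, which held for 2.64% of the genes with at least 50 transcripts in these wells. WT-PMX had 331 ± 116 CPM in 5 wells, and the 1 Arc-PMX well had 537 CPM. Enox1 in the same nuclei ran from 199 to 745 CPM in WT-veh and from 65.1 to 461 CPM in Arc-veh, and Rgs6 from 339 to 820 and from 430 to 572 CPM, with overlap for both. No test was made, since Arc-PMX had 1 well with 10 nuclei, and the Arc-veh values rest on 46 nuclei.

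The partners of each gene were followed in the same fits. Of 11 genes of the R7 RGS system (Rgs7, Rgs9, Rgs11, Gnb5, their membrane anchors Rgs7bp, Rgs9bp and Gpr158, and the alpha subunits Gnao1, Gnai1, Gnai2 and Gnai3), none was called in any of 82 tests per contrast outside astrocytes. Over all genes in these types 0.689% were called for Arc-veh against WT-veh and at most 0.00598% in the other contrasts. A count of 0 is therefore near the background. Of 5 genes of the Arhgef4 pathway (Spata13, Apc, Amer1, Rac1 and Cdc42), 2 fell in Arc-veh against WT-veh. Spata13, the close paralogue also known as Asef2, fell by 0.88 on the log2 scale in dentate granule neurons (adjusted p = 0.0396, edgeR), where 0.296% of genes were called, and the call was lost in 13 of the 24 fits that left out 1 well, although the difference stayed between -0.96 and -0.81 whichever single well or sublibrary was left out. Apc, which relieves the autoinhibition of Arhgef4, fell by 0.89 in microglia (adjusted p = 0.0173, edgeR), where 11.7% of genes were called, and the call was lost without WT-veh F2, M1 or M2. Arhgef4 itself was below the filter in microglia. The 3 genes of plasma membrane electron transport beside Enox1 (Enox2, Nqo1 and Cyb5r3) gave 0 calls in 10 tests per contrast, again near the background. In astrocytes, as a description, Enox2 differed by -0.28 between Arc-veh and WT-veh, Apc by -0.09, Rgs7 by 0.26, Rgs9 by 1.08 and the anchor Rgs7bp by -0.84. Spata13 differed by 1.13 (SE 0.414) in astrocytes, from 14.0 ± 3.93 CPM over WT-veh wells to 33.5 ± 16.2 CPM over Arc-veh wells, which overlapped. Cyb5r3, a flavoprotein reductase below the filter in astrocytes, averaged 4.02 ± 2.69 CPM over WT-veh wells and 14.0 ± 5.30 CPM over Arc-veh wells.

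The other genes that the study listed for the same astrocyte cluster were chosen on these samples too. In astrocytes Sgcd, a dystrophin-complex sarcoglycan, differed between Arc-veh and WT-veh by 2.27 on the log2 scale, Plce1, a phospholipase C, by 1.99, Gpam, an enzyme of glycerolipid synthesis, by 1.35 and Sema6d, a semaphorin, by 0.81. For these 4, as for Enox1 and Arhgef4, the Arc-veh wells did not overlap the WT-veh wells. The Arc-PMX and Arc-veh means were 329 and 360 CPM for Sgcd and 1239 and 1319 CPM for Plce1. Outside astrocytes none of these 4 genes was called in any contrast, which is near the background over all genes. The list also held 3 transcripts linked to ribosomal RNA, AY036118, Gm26917 and Gm42418, which differed in astrocytes by 3.19 (SE 0.595), 0.69 (SE 0.320) and 0.39 (SE 0.260), all with overlap. Gm42418 was not called outside astrocytes. AY036118 was called higher in Arc-veh in 5 types, and every one of these calls was lost without Arc-veh F3 and M1, with differences of 0.14 to 0.67 on the log2 scale. It was also called lower in Arc-PMX than in Arc-veh in microglia (log2 difference -3.18, adjusted p = 0.0217, edgeR) and in oligodendrocytes (log2 difference -3.29, adjusted p = 0.00326, edgeR). Without Arc-veh F3 and M1 both calls were lost (-0.44 and -0.47, adjusted p = 0.999 and 1, edgeR), and the microglial call was also lost without Arc-PMX F1, M2 or M3. The astrocyte difference for that contrast was -3.05, as a description. Gm26917 was called higher in Arc-veh microglia, by 1.48 (adjusted p = 0.0234, edgeR), and that call was lost without WT-veh F2, WT-veh M1 or Arc-veh M1 and with DESeq2 (adjusted p = 0.0582).

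Depth varied between wells, from 1150 to 3111 nuclei and from 4389302 to 30001277 transcripts per well, and the counts were whole transcripts. As a check of the labels, App was 496 ± 24.9 CPM in neurons over WT-veh wells and 652 ± 76.1 CPM over Arc-veh wells, with no overlap. The highest WT well of either treatment had 559 CPM and the lowest Arc well 590 CPM, so no well labelled WT lay among the Arc wells. Whether reads of the human transgene were counted to mouse App was not tested. Over all nuclei of a well, astrocytes included, Enox1 was 1058 ± 50.7 CPM over WT-veh wells and 1024 ± 50.5 CPM over Arc-veh wells, so the difference in astrocytes did not appear in the whole-well sum. Arhgef4 was 77.4 ± 11.1 and 109 ± 14.8 CPM, with every Arc-veh well above every WT-veh well. The same held for 2.57% of the genes with at least 50 transcripts in these wells. Astrocytes, on which the gene was chosen, held 1265 of the 6246 Arhgef4 transcripts of WT-veh and 3634 of the 9035 of Arc-veh. The whole-well sum of Arhgef4 is therefore not independent of that choice. For all neurons together the TMM-scaled Arhgef4 means were 63.8 ± 6.45 (WT-veh) and 68.4 ± 8.66 CPM (Arc-veh), and the wells overlapped. Rgs6 over all nuclei was 174 ± 33.9 and 215 ± 73.2 CPM, with overlap.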

How the data were processed

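Single-nucleus RNA-seq libraries of mouse hippocampus, barcoded by split-pool combinatorial indexing and sequenced as 7 sublibraries, were used. Wells of single cells enriched for microglia, in the same sublibraries, were not used here. The deposited matrices hold whole-number transcript counts per barcode and gene, made by the authors with the Parse pipeline on mm10, after bcl2fastq according to the submitters' processing notes. The authors left out 1 WT sample because its expression was that of Arctic mice. It was not named in the sources used here, so all 24 wells were kept. Each barcode was assigned to a group by its first-round well in the deposited well sheet. Wells are preparations of separate mice, and same-numbered wells of different groups are not from the same mouse.

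Nuclei with more than 300 and fewer than 50000 transcripts, more than 400 genes and under 1% mitochondrial transcripts were kept (45138), and 1253 doublets (Scrublet score over 0.25) were removed. The 3-part barcodes of 8449 nuclei also occurred in another sublibrary and were kept apart by sublibrary. Clusters (scanpy 1.11.5, Leiden resolution 1.5) were built without the 3 genes and named from marker lists. A cluster stayed unnamed if its markers pointed to 2 types, if most of its nuclei were doublets before removal, if fewer than 3 of its markers were detected, or if it was shallow with none of its markers among its top 10 genes. Counts were summed per well and type and tested with edgeR 4.0.16 (glmQLFTest, TMM, filterByExpr, sex as a covariate, all 4 groups in 1 fit) in types with at least 3 wells of 10 nuclei in each group. P-values were adjusted over all genes of a type and contrast, with a threshold of 0.05. The scripts were tested on simulated data. Alternatives were another normalization, DESeq2 1.42.0, no filter on counts, no sex term, other groups, wells, sublibraries or nuclei left out, a replicate block and other names for nuclei. Members and lists were chosen with earlier results of these data known. Named genes were the 3 genes, their family and partner lists, the study's list and the 5 genes most like each in level over types, and 1 listed partner is not reported here. Counting depth limits the rare types, and a level in CPM does not tell fewer expressing nuclei from less RNA per nucleus.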

Additional observations from a re-analysis of the deposited data

Results flagged for a closer look

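In groups of 6 wells with at least 50 transcripts of a gene, the highest or lowest well was looked at for a gap to its nearest neighbour beyond Dixon's 95% limit. It was found in 10 of 117 groups, where chance gives about 5%. For Enox1 it was the low astrocyte level of Arc-PMX F2, 735 CPM against 1061 to 1149 in the other wells, and the low CA1 level of WT-veh F1, 927 CPM against 1073 to 1100. For Arhgef4 it was WT-PMX M1 in CA3 neurons, 92.4 CPM against 56.8 to 65.8, and Arc-veh M2 in MGE-like interneurons, 31.6 CPM against 43.3 to 48.7.

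The other 6 were of Rgs6, each a high well. Over all neurons these were WT-veh F3, 256 CPM against 143 to 177, and Arc-veh M1, 371 CPM against 138 to 216. In dentate granule neurons Arc-PMX F2 had 141 CPM against 53.2 to 85.6, and in CA1 neurons WT-PMX M3 had 151 CPM against 88.1 to 106. In CGE-like interneurons Arc-veh M1 had 509 CPM against 81.6 to 227, from 106 transcripts in 30 nuclei, and Arc-PMX F1 had 904 CPM against 114 to 294, from 414 transcripts in 70 nuclei. Arc-veh M1 was also the highest Arc-veh well for Rgs6 in astrocytes, at 880 CPM, and the well with the most AY036118. Whether these go together was not tested.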

How the results depend on the processing

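Of 5030 alternative settings of the values of the 3 genes, shares of nuclei left aside, 5029 kept their side of the threshold, or stayed within the spread between wells where no test was made. No tested value was called in the main fits, so keeping its side meant staying uncalled. The exception was Enox1 in astrocyte nuclei without an AY036118 transcript, where Arc-veh differed from WT-veh by 1.77 on the log2 scale; the set held fewer wells, and the cause was not tested. Among the values that were not called, 295 changed sign and stayed uncalled. With each nucleus named by its own markers, the genes entered 2 tests that the main fits did not hold and were called lower in Arc-veh than in WT-veh. These were Enox1 in microglia (log2 difference -0.82, adjusted p = 0.0382, edgeR) and Arhgef4 in oligodendrocytes (-1.42, adjusted p = 0.0177, edgeR). In the clusters neither passed the filter on low counts, and neither was called without that filter. Named by markers of each nucleus, these types took in nuclei from clusters of other types or none. Of the microglia so named 132 of 262 in WT-veh and 678 of 849 in Arc-veh lay in microglial clusters, and Enox1 averaged 745 and 456 CPM. In the clusters themselves it averaged 55.9 ± 39.2 CPM over 4 WT-veh wells and 84.6 ± 23.7 CPM over 6 Arc-veh wells. These rest on 7 and 73 transcripts and the wells overlapped, so no direction is read from them. Arhgef4 in oligodendrocytes averaged 78.3 and 27.4 CPM, against 4.08 and 3.97 CPM from 7 transcripts each in the clusters. When 1 well or 1 sublibrary was left out at a time, the astrocyte difference of Arc-veh from WT-veh ran from 2.11 to 2.26 for Enox1, from 0.83 to 0.97 for Arhgef4 and from 0.29 to 0.55 for Rgs6. Without thinning, the shares of astrocyte nuclei moved by more than the SD over wells, except for Rgs6 in WT-veh. The share with Enox1 was then 25.0% and 32.7% in WT wells with vehicle and with PMX205 and 66.7% and 65.6% in the matching Arc wells. That with Arhgef4 was 45.0%, 56.0%, 79.3% and 79.4%, and that with Rgs6 was 30.6%, 48.0% and 49.1% from the second of these on.

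Over all genes the 12 other types gave 461 calls for Arc-veh against WT-veh, 837 without a filter on low counts, 1763 with each nucleus named by its own markers and 297 without WT-veh F2. Arc-PMX against Arc-veh gave 4 calls, 148 without the filter, 2 with DESeq2 and 0 without Arc-veh M1 or with the replicate block. WT-PMX against WT-veh and the difference of the PMX205 effects gave 1 call each, 84 and 89 without the filter and 0 with the block. In astrocytes Arc-PMX against Arc-veh gave 1 call, 6 without the filter and 0 with DESeq2. The replicate numbers were not taken to pair the wells, since same-numbered wells are of different mice and not every pair deviated together. Their deviations correlated by a median of 0.21 in neurons (range -0.37 to 0.71), 0.06 in astrocytes and 0.03 in oligodendrocytes, with 23, 13 and 6 of 36 pairs over 0.1. A well correlated best with its own number in 29, 25 and 21 of 72 cases, which is a hint from the data only. The well sheet names no batch, and whether same-numbered wells shared one was not tested. With the replicate block the astrocyte difference of Arc-veh from WT-veh was 2.17 for Enox1, 0.89 for Arhgef4 and 0.43 for Rgs6, and no call of the 3 genes changed. The number of wells with 10 nuclei limits the rare types, with 17 for endothelial cells, 13 each for pericytes and ependymal cells, and 12 each for fibroblasts and choroid plexus. T cells had 1 such well and Cajal-Retzius neurons 2.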
